A study of Mus musculus with 2 samples.

Results

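Cycling cells of the aortic wall are the cells that carried transcripts of the division machinery when the tissue was dissociated. They were sought in single-cell RNA profiles of the aortic root and ascending aorta of Fbn1C1041G/+ mice, which carry a mutation in fibrillin-1, a building block of elastic fibres, and serve as a model of Marfan syndrome. A cell was counted as cycling when at least 2 of the 6 genes Mki67, Top2a, Cdk1, Ccnb1, Birc5 and Ube2c were above 0 in the deposited values. This rule found 64 of 7358 cells. The GLPG0187 library held 48 of them among 4397 cells, and the vehicle library held 16 among 2961 cells.

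Both groups carried the same Fbn1C1041G/+ genotype and were collected at 16 weeks of age. The GLPG0187 group received this inhibitor of alpha-v integrins daily from 6 to 16 weeks of age, and the vehicle group received the carrier over the same period. Each library is 1 pool of male and female aortas, and the number of mice in it is not given in the sources at hand. A single library stands for each treatment, so differences between them have no replicate check, and treatment cannot be told apart from mice, dissection and library making. Intervals are 95% exact Clopper-Pearson intervals of shares, which cover counting error only.

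A dividing cell passes through a fixed order of programmes. Cyclin D and its kinases release E2F factors, which switch on the genes that license and copy DNA. Later, B-MYB and FOXM1 act through the cell cycle homology region, a short promoter element read by the MuvB core complex, and NF-Y acts through CCAAT boxes, to switch on the genes of chromosome condensation, the spindle and cytokinesis. Most cells of the adult arterial wall are quiescent, and arterial macrophages are known to be renewed in part by local division. Smooth muscle cells and fibroblasts can re-enter the cycle after injury.

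The 6 genes of the rule cover different steps. Mki67 encodes Ki-67, which coats mitotic chromosomes, and Top2a encodes the topoisomerase that untangles DNA before chromosomes separate. Cdk1 is the mitotic kinase and Ccnb1 its cyclin partner. Birc5 encodes survivin, a subunit of the chromosomal passenger complex, and Ube2c encodes a ubiquitin-conjugating enzyme of the anaphase-promoting complex. Their promoters are printed here because the rule rests on these genes and because the letters of the division elements are found in them. Each runs from 250 bases before to 50 bases after the start of the gene, from RefSeq on GRCm38.p6, written 5′ to 3′ along the strand of the gene. Mki67 is at chr7:135716330-135716629 on the minus strand, Top2a at chr11:99024140-99024439 on the minus strand and Cdk1 at chr10:69352863-69353162 on the minus strand. Ccnb1 is at chr13:100786437-100786736 on the minus strand, Birc5 at chr11:117848987-117849286 on the plus strand and Ube2c at chr2:164769679-164769978 on the plus strand. Capitals mark the 5 motifs named after the sequences, on either strand.
Mki67: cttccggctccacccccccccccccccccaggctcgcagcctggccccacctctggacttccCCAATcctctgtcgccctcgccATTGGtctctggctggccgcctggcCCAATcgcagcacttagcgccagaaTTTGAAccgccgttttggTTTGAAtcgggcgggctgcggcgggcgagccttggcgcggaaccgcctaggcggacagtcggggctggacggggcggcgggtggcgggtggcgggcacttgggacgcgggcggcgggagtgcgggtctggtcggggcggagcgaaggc
Top2a: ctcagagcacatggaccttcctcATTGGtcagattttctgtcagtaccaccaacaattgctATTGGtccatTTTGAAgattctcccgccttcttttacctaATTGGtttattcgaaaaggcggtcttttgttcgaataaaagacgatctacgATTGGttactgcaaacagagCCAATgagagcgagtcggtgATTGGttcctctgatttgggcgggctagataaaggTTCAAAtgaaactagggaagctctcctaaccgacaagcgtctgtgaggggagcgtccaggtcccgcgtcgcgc
Cdk1: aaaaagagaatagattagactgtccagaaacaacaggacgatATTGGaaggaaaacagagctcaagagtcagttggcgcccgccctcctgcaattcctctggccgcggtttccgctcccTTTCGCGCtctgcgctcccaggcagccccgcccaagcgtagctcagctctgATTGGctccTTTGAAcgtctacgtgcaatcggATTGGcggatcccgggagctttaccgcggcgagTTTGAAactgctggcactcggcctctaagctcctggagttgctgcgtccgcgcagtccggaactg
Ccnb1: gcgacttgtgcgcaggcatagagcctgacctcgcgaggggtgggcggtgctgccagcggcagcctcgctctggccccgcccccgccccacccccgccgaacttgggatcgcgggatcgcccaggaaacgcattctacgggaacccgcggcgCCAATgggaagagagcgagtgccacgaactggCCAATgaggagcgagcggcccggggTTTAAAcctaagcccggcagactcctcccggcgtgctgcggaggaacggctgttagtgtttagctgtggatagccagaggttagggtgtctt
Birc5: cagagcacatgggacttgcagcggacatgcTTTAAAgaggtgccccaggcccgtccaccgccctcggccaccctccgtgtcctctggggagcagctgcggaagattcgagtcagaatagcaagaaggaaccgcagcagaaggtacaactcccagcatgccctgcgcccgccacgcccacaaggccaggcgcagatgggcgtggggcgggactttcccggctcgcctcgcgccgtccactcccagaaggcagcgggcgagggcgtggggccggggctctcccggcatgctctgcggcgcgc
Ube2c: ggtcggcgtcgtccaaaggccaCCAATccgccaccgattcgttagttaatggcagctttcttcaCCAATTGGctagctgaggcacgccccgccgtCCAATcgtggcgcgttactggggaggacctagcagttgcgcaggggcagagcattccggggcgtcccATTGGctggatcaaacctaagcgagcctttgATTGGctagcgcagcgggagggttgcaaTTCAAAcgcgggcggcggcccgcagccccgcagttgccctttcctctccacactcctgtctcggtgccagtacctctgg

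CCAAT stood in 5 of these 6 promoters, all but that of Birc5, and in 37.4% of all 32851 promoters of the same length. In the Ube2c promoter a pair of CCAAT matches on opposite strands overlap. TTTGAA, 1 spelling of the cell cycle homology region, stood in the promoters of Mki67, Top2a, Cdk1 and Ube2c, and in 17.9% of all promoters. TTTAAA, the other spelling searched, stood in those of Ccnb1 and Birc5, and in 13.2% of all. TTTCGCGC, an E2F motif, stood in that of Cdk1 alone among the 6, and in 0.323% of all, and TTTGGCGC stood in none of the 6 and in 0.514% of all. Among the gene lists used below, TTTGAA was found in 31 of 45 promoters (68.9%) of the spindle, kinetochore and cytokinesis list and in 7 of 14 (50%) of the cyclin and mitotic kinase list. It was found in 2 of 33 (6.06%) of the DNA synthesis and repair list. TTTCGCGC or TTTGGCGC was found in 10 of 21 promoters (47.6%) of the licensing and S-phase entry list and in 2 of 45 (4.44%) of the spindle list, against 0.813% of all promoters. These lists had 40, 14, 28 and 18 genes with a promoter, of 44, 20, 34 and 22 members, for the spindle, cyclin, synthesis and licensing lists. A match describes the letters in the window and shows no binding.

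Most cycling cells of each library had only low values of the rule's markers. Under GLPG0187, 23 cells had exactly 2 markers above 0, 5 had 3, 6 had 4, 6 had 5 and 8 had all 6. Under vehicle, 8 cells had 2, 3 had 3, 1 had 4, 3 had 5 and 1 had all 6. Just outside the rule, 212 cells under GLPG0187 and 128 cells under vehicle had exactly 1 marker above 0, and 4137 cells under GLPG0187 and 2817 under vehicle had none. Cells with 2 or 3 markers had a median Mki67 of 2 (range 0 to 8) under GLPG0187 and of 1 (0 to 9) under vehicle. Cells with 4 to 6 markers had a median Mki67 of 7 (1 to 59) under GLPG0187 and of 14 (8 to 34) under vehicle. Top2a followed the same split. Its median was 1 in cells with 2 or 3 markers of either library, and in cells with 4 to 6 markers it was 15 under GLPG0187 and 23 under vehicle. Ccnb1 was the rarest marker, above 0 in 12 of 48 cycling cells under GLPG0187 and in 4 of 16 under vehicle, where Ube2c was as rare.

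**Figure D1:**
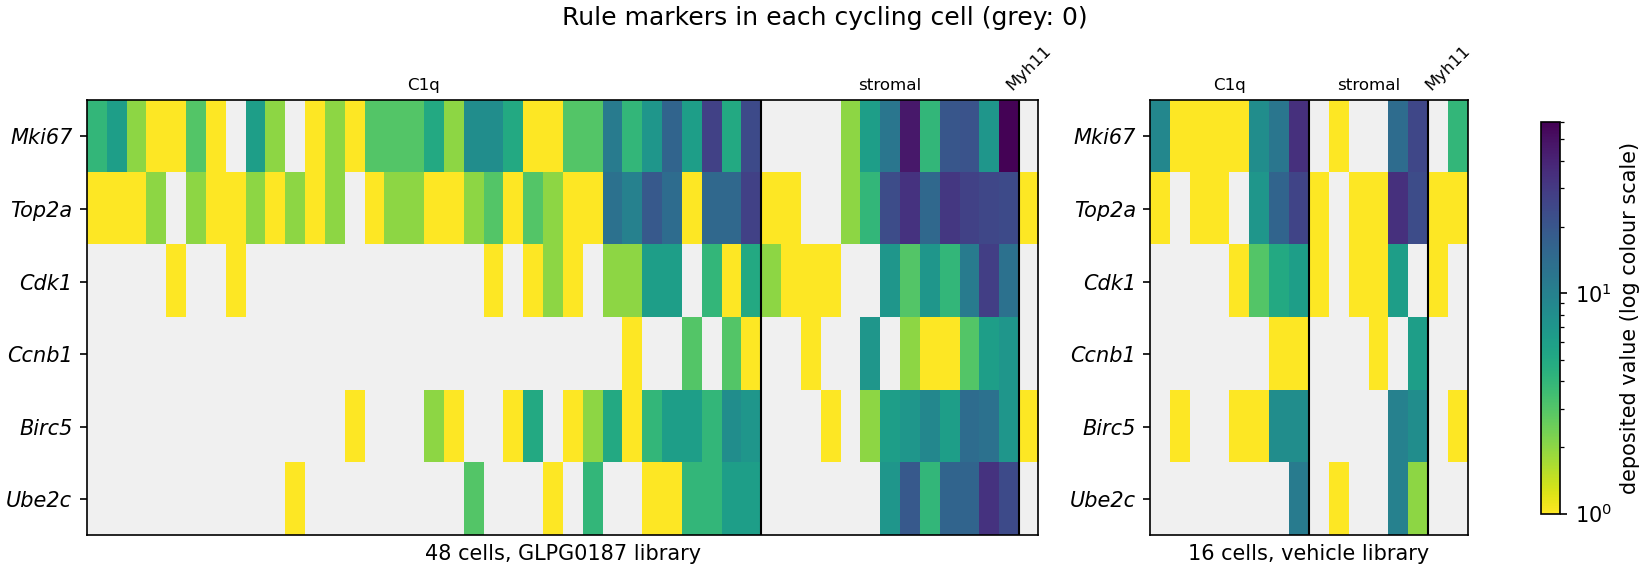
Deposited value of the 6 rule markers in each of the 48 cycling cells of the GLPG0187 library (left) and the 16 of the vehicle library (right), 1 column a cell, grouped by lineage and ordered by the number of markers above 0, on a logarithmic colour scale with 0 in grey. Dark columns over 4 to 6 markers stand beside pale columns over 2 or 3, in C1q and in stromal cells of both libraries.

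Genes outside the rule split the cycling cells in the same way. Values were summed in each cell over 56 S-phase genes, those that license and copy DNA, and over 77 mitotic genes, the cyclins, kinases, spindle parts and exit factors, with the rule's markers left out. In cells with 4 to 6 markers the mitotic sum had a median of 141 under GLPG0187 (20 cells) and of 158 under vehicle (5 cells). In cells with 2 or 3 markers it was 14.5 under GLPG0187 (28 cells) and 10 under vehicle (11 cells), and in cells with 0 or 1 marker it was 10 in both. The S-phase sum of cells with 4 to 6 markers had a median of 65.5 under GLPG0187 and of 101 under vehicle. That of cells with 2 or 3 markers was 13 under GLPG0187 and 9 under vehicle, and that of cells with 0 or 1 marker was 6 in both.

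Cells with no marker set the range against which these sums can be read. Their highest S-phase sum was 47 under GLPG0187 and 42 under vehicle, and their highest mitotic sum was 34 under GLPG0187 and 28 under vehicle. All 20 cells with 4 to 6 markers under GLPG0187 and all 5 under vehicle lay above these values in at least 1 of the sums. Of the cells with 2 or 3 markers, 6 of 28 did under GLPG0187 and 2 of 11 under vehicle. Of those with exactly 1 marker, 1 of 212 did under GLPG0187 and 0 of 128 under vehicle. The other 22 cells with 2 or 3 markers under GLPG0187, and the other 9 under vehicle, had both sums within the range of cells with no marker at all. A lower bar is the 99th percentile of each sum in cells with no marker. In at least 1 sum, 11 of 28 cells with 2 or 3 markers passed it under GLPG0187 and 4 of 11 under vehicle. Of cells with no marker, 46 of 4137 did under GLPG0187 and 46 of 2817 under vehicle. All these genes were read in the cells that the rule chose, so the sums describe the cells and test nothing.

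**Figure D2:**
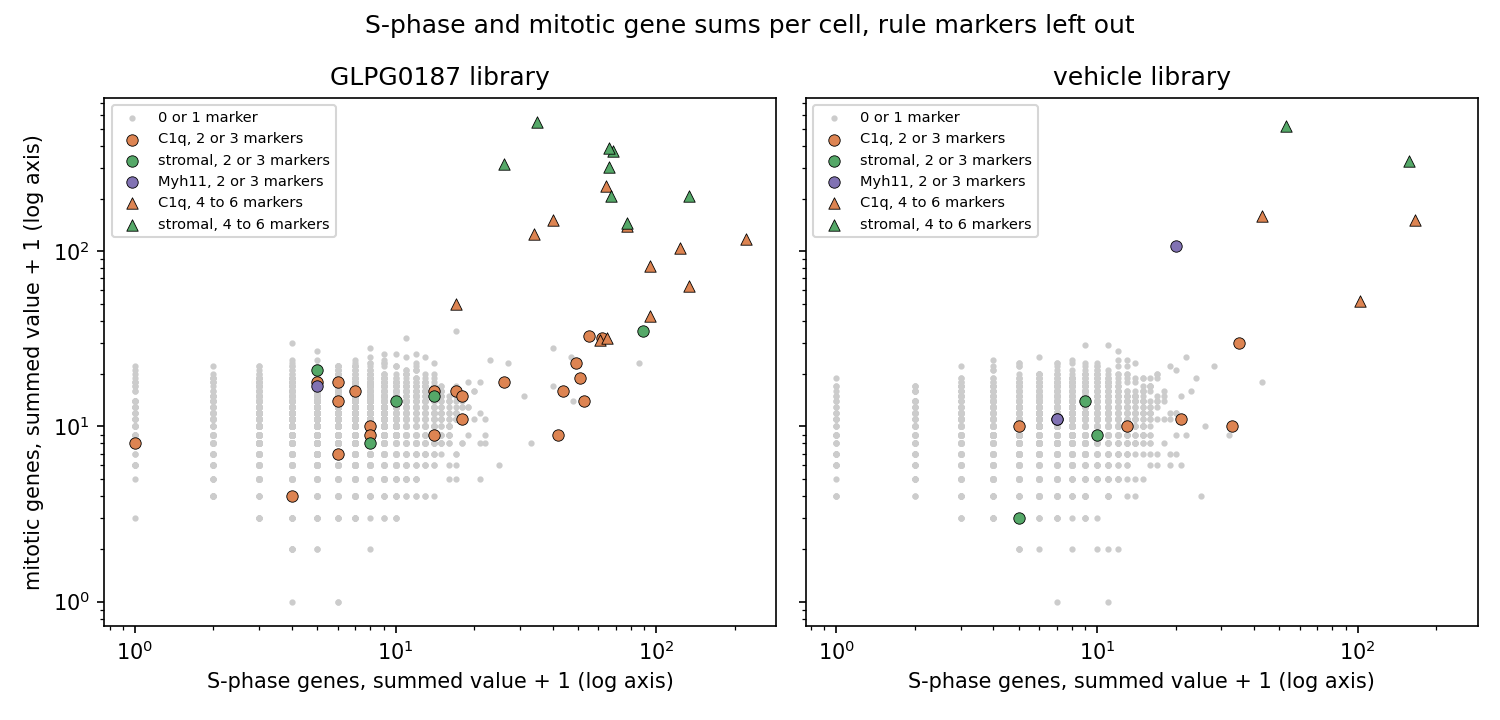
Summed value of S-phase genes (x axis, plus 1, logarithmic) against that of mitotic genes (y axis, plus 1, logarithmic) in every cell of the GLPG0187 library (left) and the vehicle library (right). Cells with 0 or 1 marker are grey. All cells with 4 to 6 markers (triangles) lie above or to the right of the range of cells with no marker, as does 1 grey cell with 1 marker under GLPG0187. Of cells with 2 or 3 markers (circles), 22 of 28 under GLPG0187 and 9 of 11 under vehicle lie within that range.

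C1q cells, which carry the complement component that tissue macrophages make, were the most frequent cycling class of both libraries. Lineages were taken from the deposited values, as Myh11 of at least 20 for contractile smooth muscle cells, a sum of at least 10 for C1qa, C1qb and C1qc, and a sum of at least 3 for the endothelial genes Pecam1 and Cdh5. Cells that met none of these are called stromal. The 29 cells under GLPG0187 and 7 under vehicle that met more than 1 were kept apart as mixed. C1q cells made up 34 of the 48 cycling cells under GLPG0187 (70.8%, interval 55.9 to 83.0) and 8 of 16 under vehicle (50%, 24.7 to 75.3). Of all cells they made up 6.46% under GLPG0187 and 5.54% under vehicle. Stromal cells were 27.1% of the cycling cells and 54.6% of all cells under GLPG0187, and 37.5% and 69.4% under vehicle. Myh11 cells were 2.08% of the cycling cells and 33.9% of all cells under GLPG0187, and 12.5% and 20.4% under vehicle.

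Within C1q cells, 34 of 284 were cycling under GLPG0187 (12%, 8.44 to 16.3) and 8 of 164 under vehicle (4.88%, 2.13 to 9.39). The difference was 7.09 percentage points (1.36 to 12.2). Of stromal cells, 13 of 2399 were cycling under GLPG0187 (0.542%, 0.289 to 0.925) and 6 of 2055 under vehicle (0.292%, 0.107 to 0.634). Their difference of 0.25 points had an interval that spans 0 (-0.176 to 0.675). Of Myh11 cells, 1 of 1489 was cycling under GLPG0187 (0.0672%) and 2 of 605 under vehicle (0.331%), a difference of -0.263 points (-1.12 to 0.159). No Pecam1 or Cdh5 cell was cycling, with 0 of 196 under GLPG0187, which allows a share of up to 1.53% by the limit of 3 cells, and 0 of 130 under vehicle, which allows up to 2.31% (upper ends of the exact intervals 1.86% and 2.80%). No mixed cell was cycling either. Over all cells the share was 1.09% under GLPG0187 (0.806 to 1.44) and 0.540% under vehicle (0.309 to 0.876), 0.551 points apart (0.111 to 0.973). The tissue was digested and sorted first, and both steps can set such shares.

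**Figure D3:**
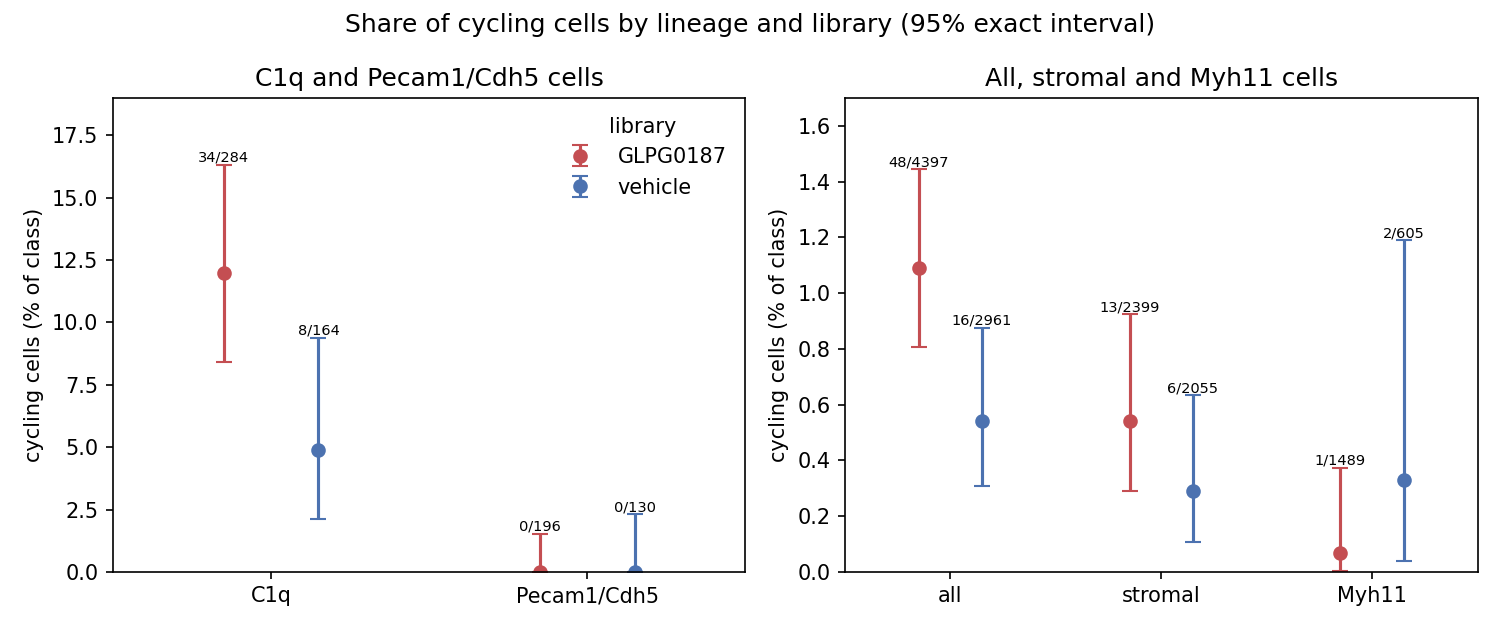
Share of cells that were cycling, in percent of the class, in the GLPG0187 library (red) and the vehicle library (blue), with 95% exact intervals or, at 0 cells, the limit of 3 cells, and the counts beside each point; the panels have different scales. C1q cells stand at 12% under GLPG0187 and 4.88% under vehicle, stromal cells at 0.542% and 0.292%, and Myh11 cells at 0.0672% and 0.331%.

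Of the rule's own markers, Mki67 was most often read in C1q cells. It was above 0 in 72 of 284 C1q cells under GLPG0187 (25.4%) and in 29 of 164 under vehicle (17.7%). In Pecam1 or Cdh5 cells, which had no cycling member, it was above 0 in 1 of 196 under GLPG0187 and 0 of 130 under vehicle. Those cells had a median of 3225 genes detected under GLPG0187 and 3036.5 under vehicle, close to the 3179.5 and 3032.5 of C1q cells. Mki67 was above 0 in 0.959% of stromal cells under GLPG0187 and 0.584% under vehicle, and in 0.0672% of Myh11 cells under GLPG0187 and 0.496% under vehicle. Top2a was above 0 in 17.3% of C1q cells under GLPG0187 and in 6.71% under vehicle. Ube2c was above 0 in 12 of 284 C1q cells (4.23%) and 14 of 2399 stromal cells (0.584%) under GLPG0187, and in 1 of 164 (0.610%) and 14 of 2055 (0.681%) under vehicle. These values chose the cycling cells and are given as a description.

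In C1q and in stromal cells, cycling cells had a higher median of genes detected than other cells. Cycling C1q cells had a median of 3866 genes detected and other C1q cells 3108.5 under GLPG0187, and 3926.5 and 2995.5 under vehicle. At or below the median of all C1q cells, 3127.5 genes, 3 of 130 were cycling under GLPG0187 (2.31%) and 2 of 94 under vehicle (2.13%). Above it 31 of 154 were cycling under GLPG0187 (20.1%, 14.1 to 27.3) and 6 of 70 under vehicle (8.57%, 3.21 to 17.7). The shares were 0.180 points apart at or below the median (-5.47 to 4.86) and 11.6 points apart above it. Cycling stromal cells had a median of 3929 genes and other stromal cells 3572.5 under GLPG0187, and 4531.5 and 3693 under vehicle. Depth had been evened out in these values before deposit, and the part of raw depth in these shares was not tested.

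Asking for more markers left fewer C1q cells and intervals that span 0. With at least 3 markers, 17 of 284 C1q cells were cycling under GLPG0187 (5.99%) and 4 of 164 under vehicle (2.44%), 3.55 points apart (-0.886 to 7.40). With at least 4 markers, 12 were under GLPG0187 (4.23%) and 3 under vehicle (1.83%), 2.40 points apart (-1.58 to 5.76), so the difference was not detectable at these cell numbers. Among C1q cells with Xist and no Y-linked value, 6 of 36 were cycling under GLPG0187 (16.7%, 6.37 to 32.8) and 2 of 36 under vehicle (5.56%, 0.680 to 18.7). Among those with a Y-linked value and no Xist, 23 of 198 were under GLPG0187 (11.6%, 7.51 to 16.9) and 6 of 103 under vehicle (5.83%, 2.17 to 12.2). The intervals overlap in each of these sets of cells.

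The cycling C1q cells carried further macrophage genes. Csf1r, the receptor for the growth factor that keeps macrophages alive, was above 0 in 33 of 34 cycling C1q cells under GLPG0187 and 8 of 8 under vehicle. Its mean was 11.8 in cycling and 11 in other C1q cells under GLPG0187, and 14.9 and 13.6 under vehicle. Adgre1, which encodes F4/80, was above 0 in 33 of 34 cells under GLPG0187 and 8 of 8 under vehicle, as was Ptprc, which encodes CD45, the common antigen of blood-derived cells. A single cell under GLPG0187 stood apart, with C1qa at 5, Ptprc and Csf1r at 0 and the fibroblast proteoglycan gene Dcn at 238. Another under GLPG0187 had Dcn at 205 and 1 under vehicle had Dcn at 165, both with Ptprc above 0. Without C1q cells that had Dcn of 20 or more, 32 of 269 were cycling under GLPG0187 (11.9%) and 7 of 154 under vehicle (4.55%). Scrublet called 48 cells under GLPG0187 and 16 under vehicle as doublets, and no cycling cell was among them. It was run on the deposited depth-corrected values and not on counts, so the lack of a call does not show that a cell is single. The libraries shared 5 barcodes, and no cycling cell carried 1 of these.

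Some genes of resident macrophages were read in a smaller share of cycling than of other C1q cells, and others were not. Lyve1 or Folr2, receptors of the resident macrophages of the vessel wall, were above 0 in 13 of 34 cycling (38.2%) and 125 of 250 other C1q cells (50%) under GLPG0187, and in 2 of 8 (25%) and 86 of 156 (55.1%) under vehicle. Lyve1 alone did not show this under GLPG0187, at 35.3% of cycling and 34.8% of other cells. By the reverse count, 13 of 138 cells with Lyve1 or Folr2 were cycling under GLPG0187 (9.42%, 5.11 to 15.6), and 21 of 146 cells with neither (14.4%, 9.13 to 21.1). Under vehicle 2 of 88 cells with either were cycling (2.27%, 0.276 to 7.97) and 6 of 76 with neither (7.89%, 2.95 to 16.4). The intervals overlap in each library. F13a1, another gene of resident macrophages, was above 0 in 15 of 34 cycling and 148 of 250 other cells under GLPG0187, and in 2 of 8 and 95 of 156 under vehicle. Its mean was 14.1 in cycling and 12.5 in other cells under GLPG0187, and 1.5 and 13.8 under vehicle. Mrc1, the mannose receptor gene, was above 0 in 28 of 34 cycling and 235 of 250 other cells under GLPG0187, and in 5 of 8 and 134 of 156 under vehicle, with means of 21 and 17.8 under GLPG0187, and 9.63 and 18.4 under vehicle. Cd163, the haemoglobin scavenger receptor gene, was close in share, at 29.4% of cycling and 30% of other cells under GLPG0187, and at 25% and 33.3% under vehicle. Timd4, a receptor for dying cells, was above 0 in 8 of 34 cycling and 63 of 250 other cells under GLPG0187, and in 0 of 8 and 43 of 156 under vehicle. Ccr2, the chemokine receptor of recruited monocytes, was above 0 in 10 of 34 cycling and 64 of 250 other cells under GLPG0187, and in 1 of 8 and 25 of 156 under vehicle.

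S-phase and mitotic genes were higher in cycling than in other C1q cells, in lists that hold none of the rule's markers. Ratios compare the mean deposited value of cycling cells with that of other cells of the same lineage and library, on a log2 scale after adding 0.05 to each mean. Members of a list are counted as higher or lower at 1.5-fold. Of all 8532 measured genes, 26.6% passed this mark upward and 4.23% downward under GLPG0187 (median 0.28), and 31.8% and 20.3% under vehicle (median 0.20). All counts of this kind come from the cells that the rule chose and are descriptions. In the licensing and S-phase entry list, 20 of 20 measured members were higher under GLPG0187 (median 2.54) and 19 under vehicle (2.78), among them the replicative helicase genes Mcm3, Mcm6, Mcm7 and Mcm5. Mcm3 had a mean of 2.12 in cycling and 0.284 in other cells under GLPG0187, and 2.25 and 0.301 under vehicle. In the DNA synthesis and repair list, 31 of 32 were higher in each library, with a median of 2.22 under GLPG0187 and 2.40 under vehicle. Pcna, the sliding clamp of the polymerases, stood at 2.94 in cycling and 0.784 in other cells under GLPG0187, and at 3.63 and 0.750 under vehicle.

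Mitotic and chromatin genes were higher in the same C1q cells. All 13 measured cyclins and mitotic kinases were higher in both libraries, with a median of 2.82 under GLPG0187 and 3.46 under vehicle. All 37 measured spindle, kinetochore and cytokinesis genes were too, with a median of 2.99 under GLPG0187 and 3.29 under vehicle. Prc1, which bundles the microtubules of the midzone, had a mean of 1.21 in cycling and 0.0280 in other cells under GLPG0187, and 2.38 and 0.0577 under vehicle. In the chromatin and condensin list 21 of 23 members were higher in each library (median 1.85 under GLPG0187, 2.08 under vehicle). The histone variant gene H2afz had a mean of 18.2 in cycling and 8.04 in other cells under GLPG0187, and 24.5 and 8.95 under vehicle. The mitotic exit list, which holds the anaphase-promoting complex, had smaller ratios, with 8 of 12 members higher under GLPG0187 (median 0.64) and 7 under vehicle (1.01). Its member Ube2s stood at 3.06 in cycling and 1.95 in other cells under GLPG0187, and at 3.88 and 1.90 under vehicle.

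Genes that open the cycle or hold it closed differed less between cycling and other C1q cells. The list of G1 cyclins and entry factors had a median of 0.35 under GLPG0187 and 0.43 under vehicle, and that of CDK inhibitors 0.29 under GLPG0187 and 0.26 under vehicle. Ccnd1, a D-type cyclin, had a mean of 6.82 in cycling and 3.64 in other cells under GLPG0187, and 4.75 and 2.03 under vehicle. Cdkn1a, which encodes the inhibitor p21, stood at 19.2 in cycling and 15.8 in other cells under GLPG0187, and at 20.8 and 15.6 under vehicle. Cdkn2c, which encodes the inhibitor p18 of the D-type kinases, was higher, at 0.588 and 0.128 under GLPG0187 (log2 ratio 1.84) and 0.750 and 0.147 under vehicle (2.02).

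Outside the cycle, genes of glycolysis and nucleotide supply were the list most often higher in cycling C1q cells. Of 19 members, 14 were higher under GLPG0187 (median 0.75) and 13 under vehicle (0.98), beside 26.6% and 31.8% of all measured genes. Gapdh, a glycolytic enzyme gene, stood at 11.2 in cycling and 7.17 in other cells under GLPG0187, and at 11.1 and 7.05 under vehicle. Of 11 contractile genes, 8 were lower under GLPG0187 and 5 under vehicle, beside 4.23% and 20.3% of all measured genes. Their values were low, with Acta2 at 3.91 in cycling and 6.58 in other cells under GLPG0187, and 2.38 and 3.65 under vehicle. None of the 5 measured members of the list of alpha-v and partner integrins was past 1.5-fold in either library (median 0.16 under GLPG0187, 0.11 under vehicle). Itgav encodes the alpha-v subunit, at which GLPG0187 is aimed, and stood at 1.38 in cycling and 1.22 in other cells under GLPG0187, and at 1.5 and 1.39 under vehicle. Itgb3, a beta subunit that pairs with alpha-v, was above 0 in 0 of 34 cycling and 5 of 250 other C1q cells under GLPG0187, and in 0 of 8 and 2 of 156 under vehicle.

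Across all genes, a stricter mark of 2-fold in both libraries was passed upward by 419 of 8532 genes in C1q cells (4.91%) and downward by 43 (0.504%). Ranked by the smaller of the ratios, Pclaf, a PCNA-binding factor, came first, with a mean of 3.68 in cycling and 0.0200 in other cells under GLPG0187, and 4.13 and 0.00641 under vehicle (log2 ratios 5.73 and 6.21). The kinetochore gene Spc24, the linker histone gene Hist1h1b, the spindle genes Hmmr, Prc1, Nusap1 and Tpx2, Stmn1, which destabilises microtubules, the epigenetic factor gene Uhrf1, the kinesin gene Kif15, the cyclin gene Ccna2 and the thymidine kinase gene Tk1 followed. Stmn1 had the highest values of these, with a mean of 10.7 in cycling and 0.652 in other cells under GLPG0187, and 14.1 and 0.769 under vehicle. It was above 0 in 79.4% of cycling cells under GLPG0187 and 87.5% under vehicle.

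The genes lower in cycling C1q cells of both libraries included early response and stress genes. The immediate early gene Jun stood at 1.47 in cycling and 4.12 in other cells under GLPG0187 (log2 ratio -1.46), and at 1.5 and 6.03 under vehicle (-1.97). Egr1, another immediate early gene, stood at 1.71 and 4.17 under GLPG0187 (-1.27), and at 0.875 and 3.92 under vehicle (-2.10). The heat shock gene Hspa1a stood at 0.794 and 2.10 under GLPG0187, and was listed at 0 in cycling and at 3.53 in other cells under vehicle. Hist1h2bc, Slfn5, Fxyd2, Wwp1, Rreb1, Errfi1 and Rras completed the lowest 10.

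**Figure D4:**
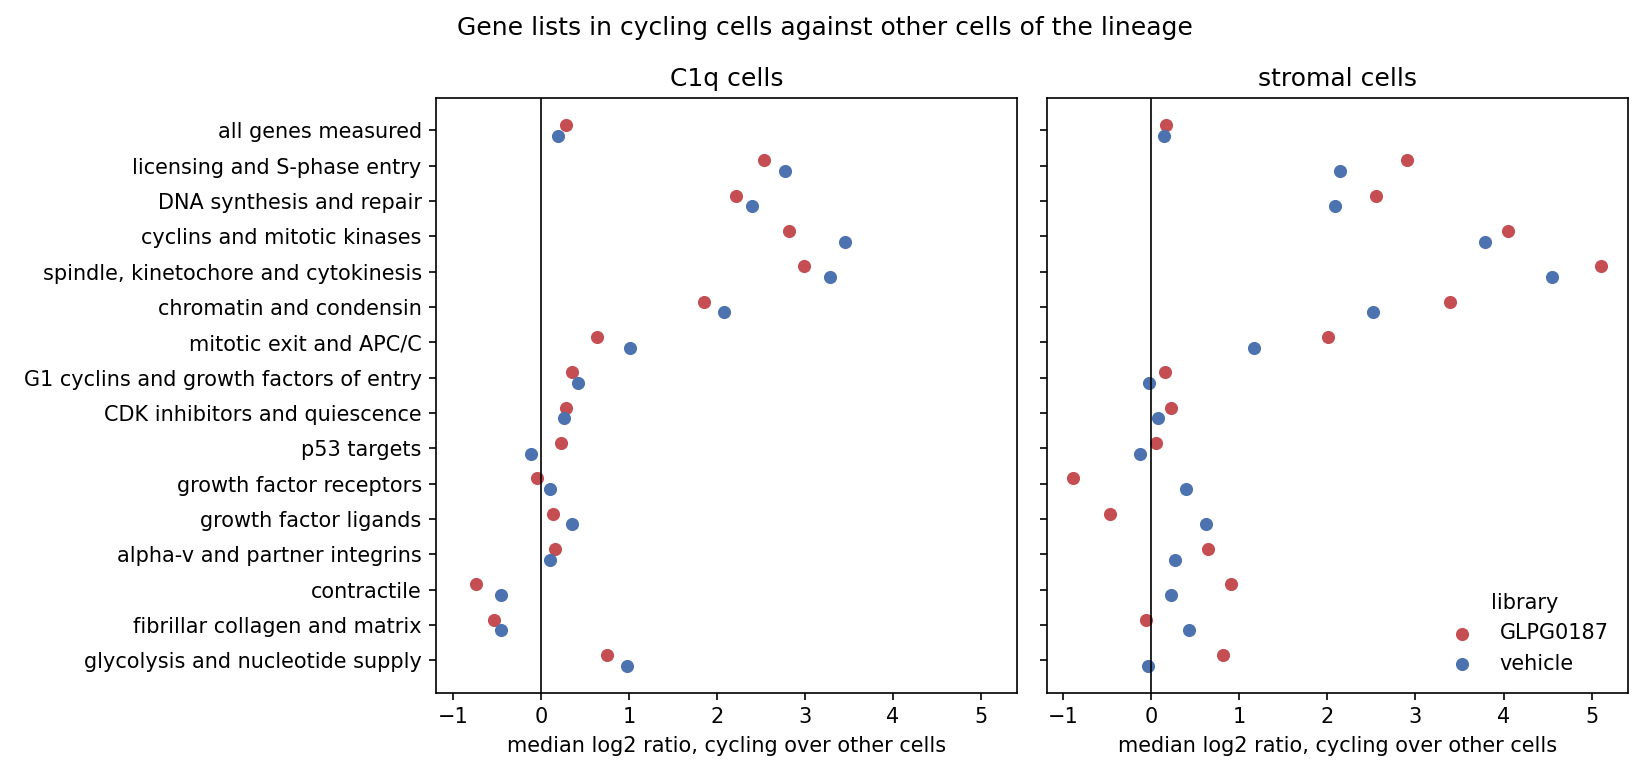
Median log2 ratio of cycling over other cells for each gene list and for all measured genes, in C1q cells (left) and stromal cells (right), in the GLPG0187 library (red) and the vehicle library (blue). In C1q cells the licensing, synthesis and spindle lists have similar medians, from 2.22 to 3.29, while in stromal cells the spindle list, at 5.11 under GLPG0187 and 4.56 under vehicle, stands above licensing, at 2.90 and 2.14.

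The stromal class held cycling cells of more than 1 kind. Ptprc was at least 3 in 5 of its 13 cycling and 58 of its 2386 other cells under GLPG0187, and in 0 of 6 and 21 of 2049 under vehicle. Of the 5 cells, 2 carried T-cell receptor complex genes, with Cd3e at 8 and 10, and 3 had the antigen presentation gene H2-Ab1 at 69, 174 and 186. The remaining 8 cells under GLPG0187 had a summed Col1a1, Col1a2 and Dcn, genes of collagen and decorin, of at least 9, and the 6 under vehicle of at least 28, against at most 3 in the 5 cells with Ptprc. Of these, 4 cells under GLPG0187 and 1 under vehicle had Myh11 between 5 and 19, below the smooth muscle mark. Without cells of Ptprc 3 or more, 8 of 2336 stromal cells were cycling under GLPG0187 (0.342%, 0.148 to 0.674) and 6 of 2034 under vehicle (0.295%, 0.108 to 0.641), 0.0475 points apart (-0.349 to 0.428). The cycling Myh11 cells had Myh11 at 59 under GLPG0187 and at 56 and 22 under vehicle. Among these the last alone had a mitotic sum, 106, above that of cells with no marker.

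The highest mitotic sums were in stromal cells. Among cells with 4 to 6 markers the mitotic sum had a median of 306.5 in 8 stromal cells and 92 in 12 C1q cells under GLPG0187, and of 422.5 in 2 and 150 in 3 under vehicle. The highest sum under GLPG0187, 546, was in a cell with Acta2 at 70, Myh11 at 11 and Cenpf, a kinetochore protein gene, at 69. The highest under vehicle, 520, was in a cell with Dcn at 176, Col1a1 at 25 and Cenpf at 53. The cell with Cd3e at 10 had the cytotoxic granule gene Nkg7 at 18 and all 6 markers, with Mki67 at 46 and Top2a at 33.

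A larger share of cycling C1q than of cycling stromal cells had an S-phase sum above the mitotic sum. The S-phase sum was above the mitotic sum in 19 of 34 cycling C1q cells under GLPG0187 (55.9%, 37.9 to 72.8) and 6 of 8 under vehicle (75%, 34.9 to 96.8). In cycling stromal cells it was above in 1 of 13 under GLPG0187 (7.69%, 0.195 to 36.0) and 2 of 6 under vehicle (33.3%, 4.33 to 77.7). The intervals of the lineages overlap under vehicle, where those 2 stromal cells had low sums, 4 against 2 and 9 against 8. With at least 3 markers the S-phase sum was above in 10 of 17 C1q and 0 of 8 stromal cells under GLPG0187. Under vehicle it was above in 3 of 4 and 0 of 3. Over all cycling cells it was above in 20 of 48 under GLPG0187 (41.7%, 27.6 to 56.8) and 8 of 16 under vehicle (50%, 24.7 to 75.3), with overlapping intervals. These sums depend on the abundance of the genes in each list, so a sum above another is no phase by itself.

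In stromal cells the spindle and cyclin lists had the largest medians of all lists. The 1.5-fold mark was passed upward by 32.2% and downward by 22.9% of 10166 measured genes under GLPG0187 (median 0.17), and by 31.2% and 22.1% under vehicle (0.14). All 44 spindle, kinetochore and cytokinesis genes were higher in both libraries, with a median of 5.11 under GLPG0187 and 4.56 under vehicle. Of 18 measured cyclins and mitotic kinases, 18 were higher under GLPG0187 (median 4.05) and 17 under vehicle (3.79). All 23 chromatin and condensin genes were higher in both, with a median of 3.39 under GLPG0187 and 2.52 under vehicle. Of 17 licensing genes, 17 were higher under GLPG0187 (2.90) and 16 under vehicle (2.14), and of 32 synthesis genes, 32 were under GLPG0187 (2.55) and 29 under vehicle (2.08). Hmgb2, a chromatin protein gene, had a mean of 41.2 in cycling and 1.18 in other cells under GLPG0187, and 14.5 and 1.13 under vehicle. Without cells of Ptprc 3 or more the mean of Hmgb2 in cycling cells under GLPG0187 was 20.8, and the spindle median was 5.63 under GLPG0187 and 4.55 under vehicle.

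The stricter mark of 2-fold in both libraries was passed upward by 764 of 10166 genes in stromal cells (7.52%) and downward by 366 (3.6%). Cenpf came first, with a mean of 10.8 in cycling and 0.00461 in other cells under GLPG0187, and 9.67 and 0.00781 under vehicle (log2 ratios 7.63 and 7.39). It was above 0 in 8 of the 13 cycling cells under GLPG0187 (61.5%) and in 2 of the 6 under vehicle (33.3%). Hmmr, Prc1, Tpx2, which nucleates spindle microtubules, the kinase gene Pbk, Stmn1, the kinetochore motor gene Cenpe, the passenger complex gene Cdca8, Ckap2, Ckap2l, the cyclin gene Ccnb2 and Cdca3 followed. With cells of Ptprc 3 or more left out, 835 genes of 9952 passed the mark upward (8.39%) and 378 downward (3.8%).

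The lowest genes in cycling over other stromal cells included Gpx3, Pi16 and C4b. The secreted peroxidase gene Gpx3 was listed at 0 in cycling cells of both libraries, while other stromal cells had a mean of 5.46 under GLPG0187 and 5.2 under vehicle. Pi16, a gene of adventitial fibroblasts, stood at 0.0769 in cycling and 4.21 in other cells under GLPG0187, and was listed at 0 and stood at 3.37 under vehicle. The complement gene C4b was listed at 0 in cycling and stood at 5.29 in other cells under GLPG0187, and stood at 0.167 and 3.85 under vehicle. Igfbp5, Plce1, Entpd2, Akap12, Col14a1, Aspn and Selenbp1 completed the lowest 10. Col14a1, a collagen gene of fibroblasts, stood at 0.538 and 6.79 under GLPG0187, and at 1 and 6.75 under vehicle. With Ptprc cells left out, Gpx3 and C4b were listed at 0 in cycling cells under GLPG0187 and Pi16 stood at 0.125, against 5.58, 5.39 and 4.32 in other cells.

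Of the genes past the 2-fold mark upward, 205 were shared by the lineages, which is 26.8% of the 764 of stromal cells and 48.9% of the 419 of C1q cells. Of the 156 genes in the S-phase, mitotic and chromatin lists, 131 were among the 764, 111 among the 419 and 99 among the 205. Some matrix and adhesion genes were higher in cycling than in other stromal cells, while the matrix list had a median of -0.06 under GLPG0187 and 0.43 under vehicle. Fn1, which encodes fibronectin, had a mean of 35.8 in cycling and 4.83 in other stromal cells under GLPG0187, and 25.2 and 6.68 under vehicle (log2 ratios 2.88 and 1.91). Eln, which encodes elastin, had 16.4 and 4.55 under GLPG0187, and 11.5 and 5.01 under vehicle. Itgb1, the beta-1 integrin subunit, had 18.3 and 9.56 under GLPG0187, and 16.7 and 10.3 under vehicle. Itga8, a partner of beta-1 in smooth muscle, had 5.31 and 2.21 under GLPG0187, and 5 and 2.44 under vehicle. The alpha-v gene Itgav was close between the classes, at 1.54 and 1.63 under GLPG0187, and at 1.5 and 1.59 under vehicle. With Ptprc cells left out, Fn1 stood at 58.1 and Eln at 26.4 in cycling cells under GLPG0187.

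Growth factor receptor and contractile genes of cycling stromal cells are given by library as a description, beside the 32.2% of all genes that were higher and 22.9% lower under GLPG0187, and the 31.2% and 22.1% under vehicle. Of 11 measured growth factor receptors, 7 were lower and 1 higher in cycling than in other cells under GLPG0187 (median -0.89), and 4 were lower and 4 higher under vehicle (0.39). Pdgfra, the receptor that marks fibroblasts, had a mean of 0.308 in cycling and 3.20 in other cells under GLPG0187, and 8 and 3.02 under vehicle. It was above 0 in 2 of 13 cycling cells under GLPG0187 and 5 of 6 under vehicle. Of 14 contractile genes 9 were higher under GLPG0187 (median 0.90) and 4 under vehicle (0.22). Acta2, which encodes smooth muscle actin, had a mean of 42.6 in cycling and 20.1 in other cells under GLPG0187, and 19.2 and 18.8 under vehicle. Without cells of Ptprc 3 or more the receptor median was -0.33 under GLPG0187 and 0.40 under vehicle, and the contractile median 1.52 under GLPG0187 and 0.18 under vehicle. These last values rest on 8 cycling cells under GLPG0187 and 6 under vehicle.

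Between the libraries, the medians of the cycle gene lists were near 0 over all cycling cells, and farther from 0 within a lineage. Of 8040 genes measured over the cycling cells, 1600 (19.9%) were 1.5-fold or more higher under GLPG0187 than under vehicle and 1558 (19.4%) as much lower, with a median log2 ratio of 0.00. The median was 0.18 for licensing, 0.06 for synthesis, 0.00 for cyclins and kinases, 0.01 for the spindle and 0.03 for chromatin. Of the 43 measured spindle genes 6 were higher and 6 lower. Within C1q cells these medians were -0.15, -0.17, -0.51, -0.26 and -0.35, with 0.11 for all genes, and 6 of 12 cyclins and kinases were lower and 2 higher. There 29.9% of 7047 genes were 1.5-fold higher and 14.9% lower, on 34 cells under GLPG0187 and 8 under vehicle. Within stromal cells they were 0.50, 0.35, 0.46, 0.44 and 0.81, with 0.07 for all genes, and 30.4% of 8588 genes were 1.5-fold higher and 27.7% lower. There 13 of 23 chromatin genes were higher and 1 lower. With Ptprc cells left out, 29 of 44 spindle genes were higher and 1 lower (median 0.87), where 26.6% of 8521 genes were higher and 27.2% lower. Of all cycling stromal cells, 8 of 13 under GLPG0187 and 2 of 6 under vehicle had 4 to 6 markers. The part of this unlike mix in the stromal ratios was not tested. Over cycling cells with Xist and no Y-linked value, 9 under GLPG0187 and 3 under vehicle, the medians of the licensing, synthesis, cyclin and spindle lists were 2.60, 3.31, 3.60 and 4.60. The 3 cells under vehicle had 2 or 3 markers and mitotic sums of 9, 9 and 10. These sums lie within the range of cells with no marker, while those of the 9 cells under GLPG0187 ran from 8 to 372. Over cycling cells with a Y-linked value and no Xist, 34 under GLPG0187 and 12 under vehicle, the same medians were -0.23, -0.29, -0.53 and -0.43.

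The ratios of contractile and matrix genes over all cycling cells were not those within a lineage. Of 14 measured contractile genes, 12 were lower under GLPG0187 than under vehicle (median -0.93), but the median was 0.53 within C1q cells and 0.34 within stromal cells. For matrix genes it was -1.14 (7 of 11 lower), and -0.15 within C1q and -0.73 within stromal cells. The 8 lowest genes were Comp, Gdf10, Prg4, 1500015O10Rik, Slc7a2, Aspn, Spp1 and Crispld1. Comp, a cartilage matrix protein gene, had a mean of 0.0625 under GLPG0187 and 10.3 under vehicle, where 4 of 16 cells were above 0. Most of that mean under vehicle comes from 1 stromal cell at 122. Spp1, which encodes osteopontin, was above 0 in 17 of 48 cells under GLPG0187 and 11 of 16 under vehicle, with means of 1.98 and 34.6. The mean under vehicle rests on 1 stromal cell at 526. In C1q cells alone it was above 0 in 12 of 34 cycling cells under GLPG0187 and 5 of 8 under vehicle, and its means there were 0.882 and 1.63.

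In stromal cells alone the genes highest under GLPG0187 over vehicle were all immune genes. They were H2-Ab1, Cd52, Cd74, Lyz2, Tyrobp, Fcer1g, Srgn and Laptm5, of which all but Cd74 were listed at 0 under vehicle. H2-Ab1 was above 0 in 5 of 13 cells under GLPG0187, with a mean of 33.2, and in 0 of 6 under vehicle. The 5 cells with Ptprc of 3 or more held nearly all of these values, with a mean H2-Ab1 of 85.8 against 0.375 in the other 8 cells under GLPG0187, where the highest was 2. The lowest were Fmod, Comp, Serpina3n, Ifit1, Cdh11, 1500015O10Rik, Cygb and Ramp2. Of these the fibroblast cadherin gene Cdh11 was above 0 in 0 of 13 cells under GLPG0187 and 3 of 6 under vehicle.

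The 8 highest genes over all cycling cells were mostly read in C1q cells. They were Ccl7, Rsad2, Ccl8, C4b, Clec4d, Ms4a4c, Jarid2 and Clec4e. Ccl7, a chemokine for monocytes, was above 0 in 30 of 34 cycling C1q cells under GLPG0187, with a median of 18.5 (0 to 250), and in 2 of 8 under vehicle, with a median of 0 (0 to 5). In other C1q cells it was above 0 in 200 of 250 under GLPG0187 and 86 of 156 under vehicle, with means of 34.9 and 17.6 (log2 ratio 0.99). Rsad2, which encodes the antiviral protein viperin, was above 0 in 14 of 34 cycling C1q cells under GLPG0187, with a mean of 7.76, and in 0 of 8 under vehicle. In other C1q cells its mean was 4.89 under GLPG0187 and 0.410 under vehicle (3.42). Ccl8, another monocyte chemokine, had a mean of 7.53 under GLPG0187 and 0.25 under vehicle in cycling C1q cells, and of 18.6 and 4.40 in the others (2.06).

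For 3 of these genes the ratio in other C1q cells was close to 0 or below it. Clec4d, a lectin receptor gene of macrophages, had a mean of 3.5 under GLPG0187 and 0.125 under vehicle in cycling C1q cells, and of 3.43 and 3.89 in the others (-0.18). Clec4e, another lectin receptor gene, had a mean of 4.56 under GLPG0187 and 0.375 under vehicle in cycling C1q cells, and of 2.18 and 2.80 in the others (-0.35). Jarid2, a polycomb cofactor gene, was above 0 in 19 of 34 cycling C1q cells under GLPG0187 and 0 of 8 under vehicle, and in 120 of 250 and 75 of 156 others (0.14). The genes were chosen for their size among all measured genes, and whether cycling and other C1q cells differ in these ratios was not tested.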

How the data were processed

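Single-cell RNA libraries of 2 pools were analysed, 1 a group, grouped by the treatment label. Each deposited value is a whole-number score on a depth-corrected scale, not a UMI count. Totals lay between 12078 and 16719 per cell (coefficient of variation 5.69% for GLPG0187 and 5.81% for vehicle), so the authors had evened out depth. The submitters' processing notes name Cell Ranger, Seurat and the mm10 build. Cell filters, the gene filter and the correction are not given in the sources used here, so no count model was run. All 18920 genes and all cells were kept, and medians of genes detected were 3773 and 3788. Doublets were called with Scrublet in scanpy 1.11.5 and kept, except in an alternative.

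The rule's members, the gene lists and the tests were chosen with earlier results of these data known, and the pathway lists hold none of the 6 markers. Ratios are log2 ratios of mean deposited values after adding 0.05. Genes were measured where the mean of the group means was at least 0.1 for cycling over other cells, or where the mean over cycling cells was at least 0.2 for GLPG0187 over vehicle. Named genes were the 12 highest and the 10 lowest in cycling over other cells of a lineage, ranked by the library with the smaller ratio, among genes above 0 in 20% of cycling or 40% of other cells of each library. Between libraries they were the 8 highest and 8 lowest among genes above 0 in 25% of the cycling cells of either, and the most abundant 2 to 4 members stand for each list. Other genes named were chosen after their values were seen. The ratio step was also run on simulated counts, with changes planted only in genes of higher values. Those counts had a common mean for each gene within a library and no lineages. That run therefore does not check the ratios within a lineage or the effect of spread between real cells. Intervals of differences were built from those of both shares. Python 3.11.15 with numpy 2.4.6, pandas 2.3.3, scipy 1.17.1 and matplotlib 3.10.9 was used.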

Additional observations from a re-analysis of the deposited data

How the results depend on the processing

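No paired analysis was possible because each group holds 1 library. Under all 7 alternatives the cycling share of all cells was higher in the GLPG0187 library, by 0.286 to 1.05 points. Its intervals were above 0 in 3 of them. That of C1q cells was higher there under all 11, by 0.180 to 11.6 points, with intervals above 0 in 6. Leaving out stromal cells with Ptprc repeats the main C1q values, since it touches no C1q cell, and the doublet alternative left out no cycling cell. The C1q intervals spanned 0 with at least 3 or 4 markers, in Xist-only cells, in Y-only cells and at or below the median of genes detected. Of the alternative values, 165 stayed within the interval, 1.5 times or 0.32 log2 units and 59 did not. For all cells the others were 0.569% and 0.270% with at least 3 markers, 0.455% and 0.169% with at least 4, 5.91% and 4.86% with at least 1 (1.05 points apart), 0.783% in Xist-only cells of the GLPG0187 library, and 0.280% for the vehicle library in cells of middling numbers of genes detected (1.01 points apart). For C1q cells they were 5.99% with at least 3 markers in the GLPG0187 library, 4.23% and 1.83% with at least 4, 16.7% in Xist-only cells and 20.1% above the median of genes detected, both in the GLPG0187 library. At or below that median they were 2.31% and 2.13%, 0.180 points apart, where stromal cells were at 0.157% and 0% and Myh11 cells at 0% and 0%. Stromal cells of the vehicle library were at 0.0973% with at least 4 markers. Myh11 cells were at 0% with at least 3 markers or in Xist-only cells of the GLPG0187 library, and at 0% with at least 4 markers or in Xist-only cells of the vehicle library. The share of cells with a higher S-phase than mitotic sum was 22.2 points apart in Xist-only cells. Genes 2-fold apart in stromal cells numbered 377 higher and 234 lower with a pseudocount of 0.2, 737 lower with no filter and 637 lower with at least 3 markers. In C1q cells they numbered 179 and 14 with a pseudocount of 0.2, 101 lower with no filter, and 779 and 107 with at least 3 markers. Between libraries 2861 and 3892 genes were 1.5-fold higher and lower with no filter, and 2612 and 2379 in stromal cells. List medians between libraries in stromal cells were 0.50 (licensing), 0.46 (cyclins), 0.44 (spindle) and -0.73 (matrix), and in C1q cells -0.15, -0.51 and -0.15 (licensing, cyclins, matrix). In Xist-only cells, of which 9 and 3 were cycling, the latter with 2 or 3 markers each, they were 2.60 (licensing), 3.31 (synthesis), 3.60 (cyclins), 4.60 (spindle), -0.54 (matrix) and 0.37 (all genes). In Y-only cells they were -0.23 (licensing), -0.29 (synthesis), -0.53 (cyclins) and -0.43 (spindle). The licensing, synthesis and spindle medians changed sign in Y-only and in C1q cells, from values under the 1.5-fold mark over all cycling cells. The causes were not tested. The alternatives with at least 4 markers, C1q cells alone, Dcn, Ptprc and the median of genes detected were chosen after seeing the data. The small number of cycling cells, 8 in C1q and 6 in stromal cells of the vehicle library, and the unknown raw depth limit every value.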

Other observations

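Some values belong to no comparison above. Vehicle cycling C1q cells included 3 of 8 with the dendritic lectin gene Cd207 and 4 of 8 with the interleukin receptor gene Il2ra, against 2 of 34 and 2 of 34 in the GLPG0187 library. The cytoskeletal linker gene Plec was above 0 in 29 of 34 cycling C1q cells of the GLPG0187 library and in 0 of 8 of the vehicle library. In other C1q cells Plec was above 0 in 126 of 250 and 89 of 156. Cd207 was above 0 there in 17 and 7, and Il2ra in 9 and 7. Cd207, Il2ra and Plec were picked from the 8 highest and 8 lowest ratios of cycling C1q cells. Of the 11 p53 target genes listed, 6 were measured in cycling C1q cells. Of these, 4 were at least 1.5-fold higher and 0 lower in the GLPG0187 library (median log2 ratio 0.81), where 29.9% of 7047 genes were as much higher. Mdm2, which encodes the ligase that restrains p53, had means of 4.24 and 2.00 there. Trp53inp1 and Bbc3 lay between the marks (-0.08 and -0.16). Cdkn1a, the p21 gene kept in the CDK inhibitor list, had means of 19.2 and 20.8 (-0.11). The growth factor gene Areg was above 0 in 5 of 34 and 3 of 8 cycling C1q cells, with means of 0.559 and 7.13. Its highest value in the vehicle cells was 44, and its means in other C1q cells were 2.30 and 2.47.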
